A study of Drosophila melanogaster with 9 samples.

Results

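Pericentromeric heterochromatin was examined through the ATAC-seq peaks that lie next to the centromeres of 3 chromosomes in Kc167 cells, a female embryonic line of Drosophila melanogaster. Members were all peaks of the 9 deposited lists on 2L from position 22000000, on 3L from 22900000, on 3R before 4200000 and on X from 22600000 of the dm6 assembly, merged where they overlapped. This gave 1110 merged regions of 25579 in the whole genome, made of 5948 of 153300 peaks, with 158 regions on 2L, 680 on 3L, 163 on 3R and 109 on X. The rest of the same arms held 19591 regions and 117890 peaks and served as the comparison. There were 3 libraries of cells given 20 micrograms of double-stranded RNA against M1BP, 3 of cells given 12 micrograms against Cp190, and 3 of mock cells, which the methods of the study describe as transfected without RNA. All were grown for 5 days after transfection. ATAC-seq marks DNA that the Tn5 transposase can reach, and each list holds the sites where fragments piled up above the local background of its own library. The study calls the 3 libraries of a group biological replicates without saying whether they were separate transfections, so p-values measure the spread between these libraries. Peak lists cannot check the knockdowns themselves. In bulk cells, a site open in more cells and a site more open in each cell cannot be told apart.

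Heterochromatin around centromeres is packed with transposable elements and satellite repeats, carries methylated lysine on the tail of histone H3 and the protein HP1, and stays condensed through the cell cycle. It still holds active genes, many of them essential, whose introns are swollen with transposon remnants, such as light (lt) and the genes for ribosomal proteins L5 and L15. M1BP is a zinc finger protein that binds the Motif 1 sequence at promoters of housekeeping genes, and CP190 is an insulator protein found at promoters and domain borders.

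The windows summed to 11.7 Mb without unknown bases, of which 40.7% was repeat-masked, against 17.5% of the rest of the arms. The annotation placed 24.7 transcript starts per Mb inside and 191 per Mb in the rest. Most member regions lay in introns (439 regions, 39.5%) or between genes (471, 42.4%), and 102 (9.19%) had their summit within 1500 bp upstream of a transcript start, against 21.0%, 9.60% and 37.4% of the regions in the rest of the arms. The median distance of a member was 16786 bp from the nearest transcript start, and that of a region in the rest 1245 bp. An annotated transposable element was overlapped by 197 member regions (17.7%), and by 0.801% of the rest. The most frequent family was the DNA transposon 1360, at 51 members, followed by gypsy8 at 19 and Cr1a at 13. Of the members overlapping 1360, 23 were held by all 9 libraries.

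To show what such regions are made of, every stretch of 31 bases was looked up in the whole assembly on both strands. In 180 member regions (16.2%) at least 50% of these stretches occurred again elsewhere, against 0.148% of the regions in the rest of the arms. The authors kept uniquely mapped read pairs only, so exact copies contribute reads only where a pair reaches distinct sequence. The 4 sequences that follow are from RefSeq's dm6 assembly, on its plus strand. The first stands for the member with the highest mean rank, as a percentile within each list, over the 9 lists. Its label refers to this mean, and it was not first in each list. The others stand for the strongest region gained in M1BP knockdown cells and the 2 strongest regions lost there. All 4 run around the summit within the region and leave out annotated exons. Capitals mark bases in stretches of 31 that occur more than once in the assembly, and lower case marks bases that do not.
Intron of Snap25, highest rank in all lists, chr3L:24175480-24175779: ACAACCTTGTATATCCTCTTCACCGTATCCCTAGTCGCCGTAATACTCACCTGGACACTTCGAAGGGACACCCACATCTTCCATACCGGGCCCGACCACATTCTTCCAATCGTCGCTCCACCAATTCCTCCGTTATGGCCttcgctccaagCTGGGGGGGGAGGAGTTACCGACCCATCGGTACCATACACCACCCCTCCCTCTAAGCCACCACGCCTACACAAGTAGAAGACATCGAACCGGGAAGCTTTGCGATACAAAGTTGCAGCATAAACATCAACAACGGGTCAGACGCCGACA
Intron of Myo81F, gained, chr3R:724332-724631: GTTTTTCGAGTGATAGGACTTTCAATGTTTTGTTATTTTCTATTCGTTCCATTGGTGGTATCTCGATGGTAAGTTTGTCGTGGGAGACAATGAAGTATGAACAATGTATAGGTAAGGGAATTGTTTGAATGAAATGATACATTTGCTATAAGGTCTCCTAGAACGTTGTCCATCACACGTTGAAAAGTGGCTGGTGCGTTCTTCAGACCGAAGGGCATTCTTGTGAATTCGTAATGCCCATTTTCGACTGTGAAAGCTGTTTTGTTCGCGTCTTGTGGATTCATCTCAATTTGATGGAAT
Between genes, lost, chr3L:27192180-27192444: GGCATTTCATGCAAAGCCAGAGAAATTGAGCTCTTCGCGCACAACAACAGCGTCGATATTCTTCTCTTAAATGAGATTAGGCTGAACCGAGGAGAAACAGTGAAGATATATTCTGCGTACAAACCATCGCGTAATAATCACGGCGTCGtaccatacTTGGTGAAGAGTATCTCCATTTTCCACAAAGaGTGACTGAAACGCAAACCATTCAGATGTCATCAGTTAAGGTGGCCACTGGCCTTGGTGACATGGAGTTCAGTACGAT
Upstream of Tim23, lost, chr2L:23313579-23313711: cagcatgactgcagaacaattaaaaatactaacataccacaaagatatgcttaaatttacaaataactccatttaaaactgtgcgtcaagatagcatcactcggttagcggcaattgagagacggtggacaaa

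The Snap25 stretch was repeated over 289 of its 300 bases, with up to 9 copies of a stretch of 31, and the Myo81F stretch over all 300, with up to 13 copies. In the lost region between genes 256 of 265 bases were repeated, with up to 5 copies. In the 133 bases upstream of Tim23, which encodes a subunit of the mitochondrial inner membrane translocase, no base was.

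Motifs were searched on both strands in 300 bp around each summit. A match to the letters of a Motif 1 consensus was found in 0 of 1110 member regions and in 274 (1.40%) of the rest. The 0 allows a share of such matches of up to 0.270% inside, by counting error only. In windows of the same length at transcript starts such a match was found at 0 of 290 starts inside. In the rest it was found at 591 of 18240 starts (3.24%). The DNA replication-related element TATCGATA, another promoter motif, was found in 31 member regions (2.79%) and in 2.80% of the rest. These are matches of letters, not binding sites, and no match says only that the letters searched are not in the window. The study instead scored Motif 1 with a probability matrix and a cutoff. Sites that its search would count can be missed here. The 0 matches therefore do not show that Motif 1, as the study defines it, is absent from the windows.

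Compared within each library, peaks inside the windows were sparser and narrower than peaks in the rest of the same arms, and ranked lower by −log10 q. Density inside was 43.5, 47.7 and 55.0 peaks per Mb in the M1BP knockdown libraries, 62.9, 67.1 and 61.7 in the Cp190 knockdown libraries and 59.3, 51.8 and 58.1 in the mock libraries. Density in the rest ran from 109 to 154 peaks per Mb, so no library overlapped between inside and rest. The mean log2 ratio of inside over rest was -1.29 ± 0.10 (SD over 9 libraries), negative in 9 of 9 (exact sign-flip test over libraries, two-sided p = 0.00391, the smallest that sign flips of 9 libraries can give). These 9 libraries share 1 genome, so the test covers the spread between libraries and not between regions. Median width was lower by 38.7 ± 11.6 bp (SD) inside, again in 9 of 9 libraries (exact p = 0.00391). The 2L window alone went the other way in most libraries. There the median width inside minus rest was 6, 55 and 57.5 bp in M1BP knockdown cells. It was 38, 41.5 and 1 bp in Cp190 knockdown cells and 65.5, -20 and 15.5 bp in mock. On 3L, 3R and X it was lower inside in every library. At annotated transcript starts the difference from the rest did not pass the test. A peak lay within 100 bp of 36.3% ± 0.72 of the 290 starts inside in M1BP knockdown cells, 41.3% ± 1.21 in Cp190 knockdown cells and 39.1% ± 0.53 in mock (SD, n = 3 each), and the difference from the rest averaged -0.38 percentage points, positive in 3 libraries and negative in 6 (exact sign-flip p = 0.469). Over the 9 libraries this difference ran from 8.07 to 13.8 points on 2L and from -0.67 to 7.62 on 3L. It ran from -7.19 to -1.56 on 3R and from -20.0 to -12.8 on X, so the average hides opposite windows. With the first 500 kb of each window left out, the difference over the 4 windows was -5.64 points (exact p = 0.00391).

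Strength was compared as the percentile of a peak's −log10 q value among all peaks of its own list, so that lists of different length and depth can be set side by side. The median percentile inside was 32.9, 34.6 and 35.9 in M1BP knockdown cells, 42.8, 42.9 and 41.2 in Cp190 knockdown cells and 44.1, 42.5 and 42.7 in mock. In the rest it lay between 49.5 and 50.7 in every library. The difference averaged -9.97 ± 4.66 percentile points (SD) and was negative in 9 of 9 libraries (exact sign-flip p = 0.00391). On 2L alone it averaged 2.92 ± 0.66 in mock, -3.48 ± 5.13 in M1BP knockdown cells and -1.14 ± 1.86 in Cp190 knockdown cells (SD). The mock averages were -7.83 on 3L, -4.62 on 3R and -10.7 on X. Ranked by fold enrichment instead, the difference over the 4 windows was -3.16 and no longer passed (exact p = 0.203). Median fold enrichment was 2.98 inside and 3.45 in the rest in M1BP knockdown cells, 2.60 and 2.59 in Cp190 knockdown cells, and 2.62 and 2.61 in mock, so by this measure only the M1BP knockdown libraries were lower inside as a group. The median local background was 32.3 fragments inside and 40.7 in the rest in M1BP knockdown cells, 43.3 and 60.6 in Cp190 knockdown cells, and 40.6 and 53.3 in mock. Its part in these differences was not tested. Repeat-masked sequence made up 18.7% ± 0.92 of peak bases inside in M1BP knockdown cells, 14.5% ± 0.86 in Cp190 knockdown cells and 14.3% ± 0.33 in mock (SD, n = 3 each). This was 5.90 ± 1.00 points (SD) above the rest over 9 of 9 libraries (exact p = 0.00391), yet far under the 40.7% of the windows themselves.

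**Figure D1:**
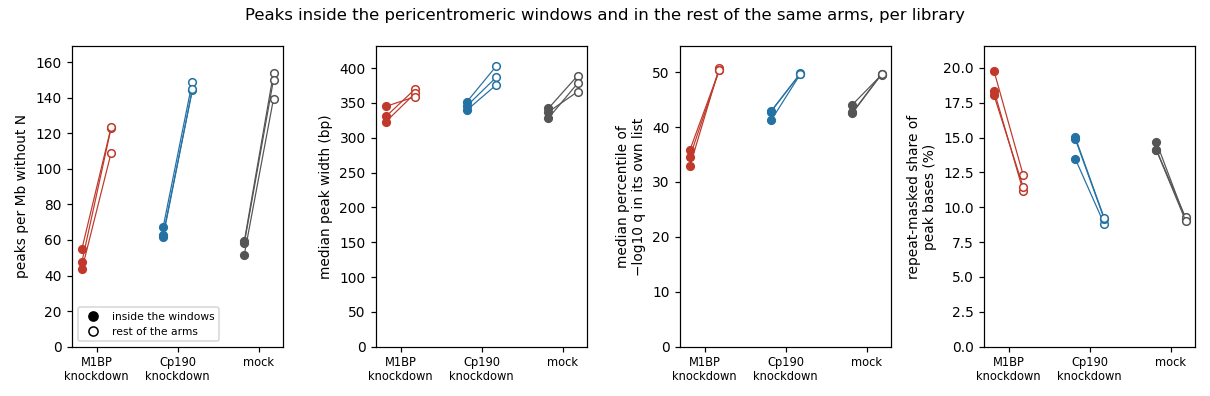
Each line joins the value inside the pericentromeric windows (filled) and in the rest of the same arms (open) of 1 library, by group, for peaks per Mb, median peak width in bp, median percentile of −log10 q and repeat-masked share of peak bases in percent. Density, width and percentile are lower inside in all 9 libraries and the masked share is higher, and the percentile inside is lowest in the 3 M1BP knockdown libraries, at 32.9 to 35.9.

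The members were shared unevenly between libraries. All 9 libraries held 288 members (25.9%), and 216 (19.5%) were held by 1 library, against 35.5% and 15.6% of the regions in the rest. Members in all 9 libraries had a median width of 696.5 bp and a median percentile of 63.4, against 705 bp and 70.3 in the rest. Of these members 58 (20.1%) lay at a transcript start, against 62.3% of such regions in the rest. Members in 1 library had a median width of 196 bp and a median percentile of 14.3. The window on 2L had the largest share in all libraries, with 62 of 158 regions (39.2%) in all 9, and the window on 3R the smallest, with 19 of 163 (11.7%). In the 3R window 83 of the 163 regions were found in M1BP knockdown libraries only. Over the 4 windows 153 regions (13.8%) were found in M1BP knockdown libraries only, 135 (12.2%) in Cp190 knockdown libraries only and 41 (3.69%) in mock libraries only. In the rest of the same arms these shares were 8.58%, 8.54% and 6.72%.

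The 6 highest ranks inside belonged to introns and to sequence between genes and not to promoters. The member with the highest mean percentile, chr3L:24175020-24175941 in an intron of Snap25, a synaptic membrane fusion gene, had a fold enrichment of 16.1, 16.9 and 15.2 in M1BP knockdown cells, 17.4, 18.6 and 18.8 in Cp190 knockdown cells and 17.2, 17.1 and 17.4 in mock. It is the first of the printed sequences, and 91.9% of its stretches of 31 bases were found again in the assembly. The next, chr3R:2087911-2089205 in an intron of Myo81F, had a fold enrichment of 16.0, 15.7 and 14.5 in M1BP knockdown libraries, 12.8, 15.2 and 15.5 in Cp190 knockdown libraries and 14.5, 13.3 and 13.7 in mock libraries, with 70.6% of its stretches repeated. In the 3 M1BP knockdown lists this Myo81F region had percentiles of 99.996, 99.997 and 99.997, above the Snap25 region at 99.989, 99.99 and 99.99. Of the 6 highest, 3 lay in introns of Snap25, 1 in an intron of Myo81F and 2 between genes. The highest member of the 2L window, in an exon of tio, a zinc finger gene, was single-copy throughout, with a fold enrichment of 9.99, 9.43 and 8.69 in M1BP knockdown cells, 6.92, 9.24 and 9.39 in Cp190 knockdown cells and 8.33, 7.80 and 7.88 in mock. The highest on X overlapped a pseudogene of 28S ribosomal RNA, and 100% of its stretches were repeated. The widest member in all 9 libraries was 3629 bp in another intron of Snap25, followed by 2708 bp at the start of Clamp, which encodes an adaptor protein of the dosage compensation complex, and 2443 bp at CG12446.

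In M1BP knockdown cells, the 2L and 3L windows held fewer peaks than in mock, the X window overlapped with mock and the 3R window held more. The 4 windows together held 510, 560 and 645 peaks in M1BP knockdown cells and 695, 607 and 682 in mock. The means, 572 ± 68.3 and 661 ± 47.5 (SD, n = 3 each), overlapped in range (exact permutation test, two-sided p = 0.2, with 0.1 the smallest that 3 against 3 libraries allow). With all lists shortened to the same number of peaks, the M1BP knockdown had 40.3 more peaks inside than mock (exact permutation p = 0.2), so this direction depends on list length. On 3L the counts were 296, 329 and 346 in M1BP knockdown cells and 474, 419 and 464 in mock, a ratio of 0.716, next to 0.797 in the rest of 3L. On 2L they were 91, 96 and 98 against 113, 103 and 118, a ratio of 0.853, next to 0.835 in the rest of 2L. In both windows no M1BP knockdown library reached the lowest mock library (exact permutation p = 0.1 each), as in the rest of these arms. On 3R the counts were 76, 84 and 134 in M1BP knockdown cells and 44, 34 and 41 in mock, a ratio of 2.47, next to 0.804 in the rest of 3R, so the groups lay apart in the opposite direction (exact permutation p = 0.1). M1BP knockdown replicate 3 was the highest of its group, and the excess was present without it.

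**Figure D2:**
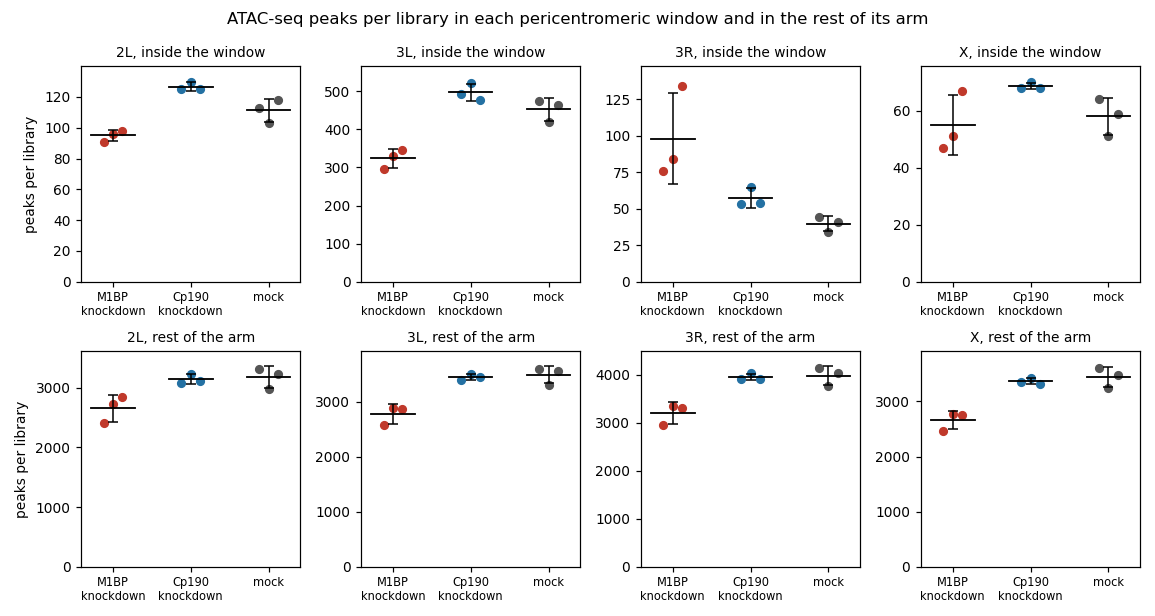
Peaks per library (points) with group mean and SD (bars) in each window (upper row) and in the rest of its arm (lower row), for M1BP knockdown, Cp190 knockdown and mock. The M1BP knockdown libraries lie below mock in the 2L and 3L windows and above mock in the 3R window, with 76 to 134 peaks against 34 to 44, while in the rest of all 4 arms they lie below mock.

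The excess on 3R lay mostly in 1 gene. Myo81F, which encodes an unconventional myosin, spans chr3R:567076-2532932, or 1966 kb, and held 108 member regions by their summits, of which 70 were found in M1BP knockdown libraries only and 7 in all 9 libraries. Peaks with a summit in Myo81F numbered 57, 52 and 104 in M1BP knockdown cells, 26, 32 and 28 in Cp190 knockdown cells and 20, 8 and 17 in mock. No knockdown library overlapped mock, and the M1BP knockdown libraries were all above the Cp190 knockdown libraries. The ratio to mock was 4.73 for the M1BP knockdown (exact permutation p = 0.1). In the 3R window outside Myo81F the counts were 19, 32 and 30 in M1BP knockdown cells and 24, 26 and 24 in mock, so the groups overlapped. Myo81F was singled out after its values were seen. Its peaks were weak, with median percentiles of 13.6, 19.8 and 25.2 in M1BP knockdown cells and 16.2, 18.8 and 16.9 in mock. Along the window, most of them fell in the 400 kb from position 600001, where the M1BP knockdown averaged 23.3 and 26.0 peaks per 200 kb bin and mock 2.00 and 6.67.

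A second place of this kind lay on X, where the pseudogene of 28S ribosomal RNA named above is found. At 600 kb and more from the boundary of the X window, the M1BP knockdown had 17, 16 and 30 peaks, the Cp190 knockdown 4, 7 and 8 and mock 5, 2 and 2. In the first 600 kb of the same window the order was reversed, with 30, 35 and 37 peaks in M1BP knockdown cells and 59, 49 and 57 in mock. The groups lay apart in both stretches (exact permutation p = 0.1 each), and the sum over the X window, 55.0 ± 10.6 against 58.0 ± 6.56 (SD, n = 3 each), hides them. The split at 600 kb was chosen after the values were seen. With Myo81F left out, the 4 windows held 453, 508 and 541 peaks in M1BP knockdown cells and 675, 599 and 665 in mock, and the groups no longer overlapped (exact permutation p = 0.1).

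**Figure D3:**
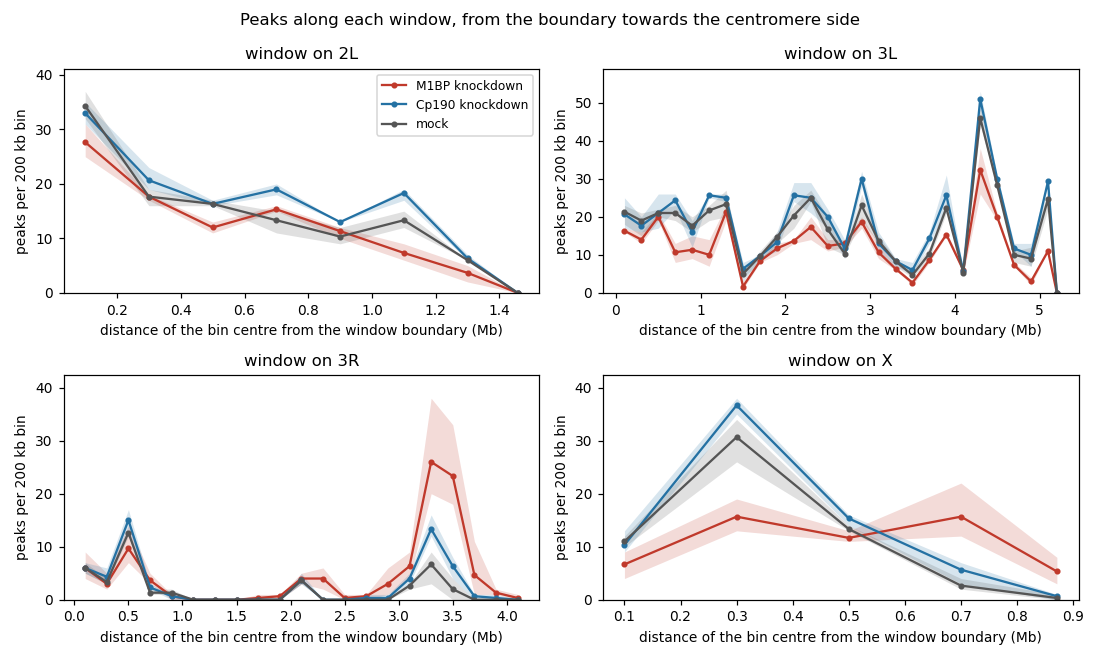
Peaks per 200 kb bin along each window, against the distance of the bin centre from the window boundary in Mb. Lines are means of 3 libraries, bands run over their lowest and highest values, and the last bin of each window is shorter than 200 kb. In the 3R window the M1BP knockdown reaches 26.0 peaks per bin at the place of Myo81F, where mock has 6.67, and in the X window the order of M1BP knockdown and mock turns round between the first and the last bins.

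Among 72 genes of the 4 arms with 20 or more regions, 2 (2.78%) had more peaks in every M1BP knockdown library than in every mock library, and 37 (51.4%) had fewer. Of the 8 such genes inside the windows, Myo81F was the only one with more, 4 had fewer and 3 overlapped. The 4 with fewer were l(3)80Fj, with 4, 3 and 5 peaks in M1BP knockdown cells against 17, 14 and 17 in mock; CG40470, with 6, 7 and 10 against 15, 11 and 13; Dbp80, a DEAD-box RNA helicase gene, with 19, 26 and 24 against 35, 35 and 36; and l(3)80Fg, with 13, 17 and 13 against 18, 19 and 23. The ratio was lowest in l(3)80Fj, at 0.250. Snap25 (23, 22 and 26 against 34, 24 and 29), lovit, a gene for a neurotransmitter transporter (24, 22 and 27 against 29, 22 and 28), and CG40006 (14, 12 and 13 against 13, 9 and 12) overlapped. Each of the 5 that lay apart from mock reached the smallest p that the exact permutation test allows here, 0.1.

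**Figure D4:**
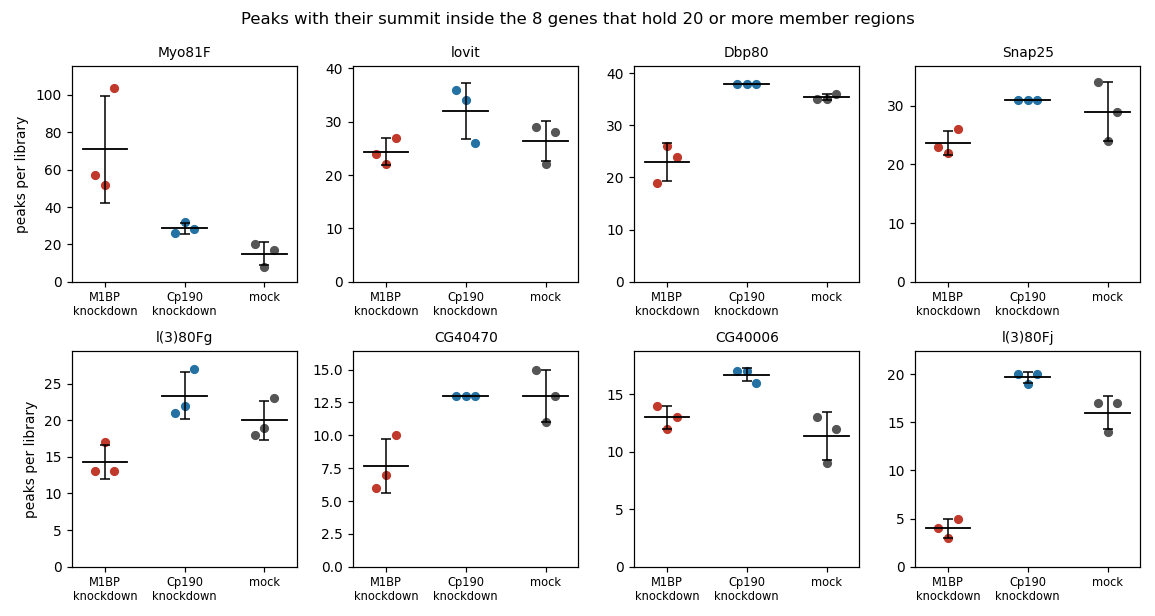
Peaks per library (points) with a summit inside each of the 8 genes that hold 20 or more member regions, with group mean and SD (bars), for M1BP knockdown, Cp190 knockdown and mock. Myo81F has 52 to 104 peaks in M1BP knockdown cells and 8 to 20 in mock, and l(3)80Fj has 3 to 5 and 14 to 17.

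Relative to the length of each list, the share of same-arm peaks that lay inside the windows was 4.81% ± 0.34 in M1BP knockdown cells and 4.48% ± 0.10 in mock (SD, n = 3 each, exact permutation p = 0.1), and without the 3R arm it was 5.53% ± 0.17 and 5.79% ± 0.10, so the direction rests on 3R. The percentile inside minus rest was -17.8, -15.7 and -14.5 in M1BP knockdown cells and -5.44, -7.15 and -6.96 in mock, with no overlap (difference -9.48, exact permutation p = 0.1). Without the 3R arm it was -12.0 ± 1.83 and -6.24 ± 1.10 (SD). Members were thus placed lower within M1BP knockdown lists, while the median width inside, 333 ± 11.2 bp against 336 ± 7.09 bp (SD), differed by less than the spread between libraries. A peak at a transcript start inside was present for 36.6%, 36.9% and 35.5% of starts in M1BP knockdown cells and 39.0%, 38.6% and 39.7% in mock (exact permutation p = 0.1). Peaks in regions with at least 50% repeated stretches made up 20.2%, 17.9% and 19.5% of the peaks inside in M1BP knockdown cells, 13.0%, 14.4% and 14.1% in Cp190 knockdown cells and 13.7%, 12.9% and 12.2% in mock. M1BP knockdown libraries were all above the others.

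A region was called lost when all 3 mock libraries and no knockdown library held a peak, and gained in the reverse case. In M1BP knockdown cells 96 of 503 regions inside were lost (19.1%), against 15.3% of all regions of the genome and 15.1% in the rest of the same arms. Losses were most frequent among weak regions, inside and in the rest. Among the weakest regions, in 3 equal classes by percentile, 36.6% of the regions inside and 37.4% in the rest were lost, in the middle class 10.4% and 6.81%, and in the strongest 1.47% and 0.850%. The share lost was 16.9% on 2L, 17.9% on 3L, 20.7% on 3R and 31.8% on X, the last being 14 of 44 regions. Gained were 43 of the regions held by all M1BP knockdown libraries (11.0%), against 7.18% of all regions and 7.26% in the rest, and without the 3R arm 25 of 340 (7.35%). With M1BP knockdown replicate 2 left out the count was 67. Among the weakest regions by percentile, 16.8% of those inside and 14.0% in the rest were gained. In the middle class it was 8.33% and 7.10%, and in the strongest 1.15% and 1.00%. Of the 43, 15 lay in Myo81F and 10 in the X window beyond 600 kb, and 18 (41.9%) had at least 50% repeated stretches, which held for 6 of the 96 lost regions (6.25%) and 16.2% of all members. The part of repeated sequence in the gains was not tested. Lost regions had a median percentile of 28.6 in mock and gained regions 31.4 in the knockdown.

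The strongest lost region, chr3L:27191947-27192444, the third of the printed sequences, had 78.9, 79.6 and 76.3 as percentile in Cp190 knockdown cells and 75.9, 77.5 and 79.5 in mock, and no peak in any M1BP knockdown library. The second, chr2L:23313436-23313711, had its summit 72 bp from the start of Tim23, with a fold enrichment of 3.93, 4.57 and 4.58 in Cp190 knockdown cells and 4.39, 4.04 and 4.04 in mock and no peak in M1BP knockdown cells. Others were an intronic site of CG12567 near mir-2490 (chr2L:23164575-23164852, 64.3 to 71.0 in mock), one in CG42346 near fog (chrX:22862157-22863025, 61.6 to 69.1), and one overlapping a 1360 copy (chr3L:23146352-23146626, 54.1 to 61.2). A sixth, chr3R:3374253-3374432, had percentiles of 63.9, 59.8 and 66.7 in mock and was absent from both knockdowns. All but the last were held by the 3 Cp190 knockdown libraries.

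The strongest gained region, chr3R:723913-725997 in Myo81F, had percentiles of 88.0, 84.8 and 88.0 and 305, 266 and 282 fragments over its summit in M1BP knockdown cells, a peak of percentile 33.9 in 1 Cp190 knockdown library and none in mock. It is the second printed sequence, 2085 bp long, with 95.8% of its stretches repeated. Next came a 176 bp region at mir-4942 on 3L, with 70.2, 71.8 and 77.0 in M1BP knockdown cells. It also had stronger peaks in 2 Cp190 knockdown libraries, with percentiles of 90.0 and 85.1. Fragments over its summit were 209, 216 and 220 in M1BP knockdown cells and 416 and 330 in those 2 libraries. The other 4 named by rank had percentiles between 52.0 and 65.7 in M1BP knockdown cells and no peak in the other 6 libraries. They were chrX:22908831-22909004, chr3L:24510716-24510940, chr3L:24515275-24515448 and chr3L:25879076-25879522, the last in an intron of l(3)80Fg. They were single places of 174 to 447 bp, with 21.6% to 58.3% of their stretches repeated.

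Where a region had a peak in all 9 libraries, the log2 fold enrichment at its summit was compared with limma over all 9033 such regions of the genome, each library centred on its median. In M1BP knockdown cells 141 of the 288 members fell (48.96%) and 46 rose (16.0%), against 30.5% and 28.3% of all regions, and 29.5% and 29.2% in the rest of the same arms (adjusted p under 0.05). The median change was -0.21 inside and 0.00 in the rest on the log2 scale. Without centring all regions together shifted by 0.27, and then 35 members fell and 99 rose, with medians of 0.06 inside and 0.28 in the rest. Centring moves inside and rest by the same amount, so the gap between them is fixed whichever scaling is used, and the direction of the members' own median depends on the scaling. With fragments over the summit in place of fold enrichment 134 fell and 56 rose. The medians were -0.14 on 2L (24 of 62 fell), -0.23 on 3L (99 of 185), -0.01 on 3R (7 of 19) and -0.17 on X (11 of 22). Members at a transcript start (27 of 58 fell, median -0.19) and away from one (114 of 230, median -0.21), with at least 50% repeated stretches (24 of 45, median -0.23) and with fewer (117 of 243, median -0.20), or with a transposable element (28 of 57, median -0.19) and without (113 of 231, median -0.21), are given side by side. Differences between these subsets were not tested.

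**Figure D5:**
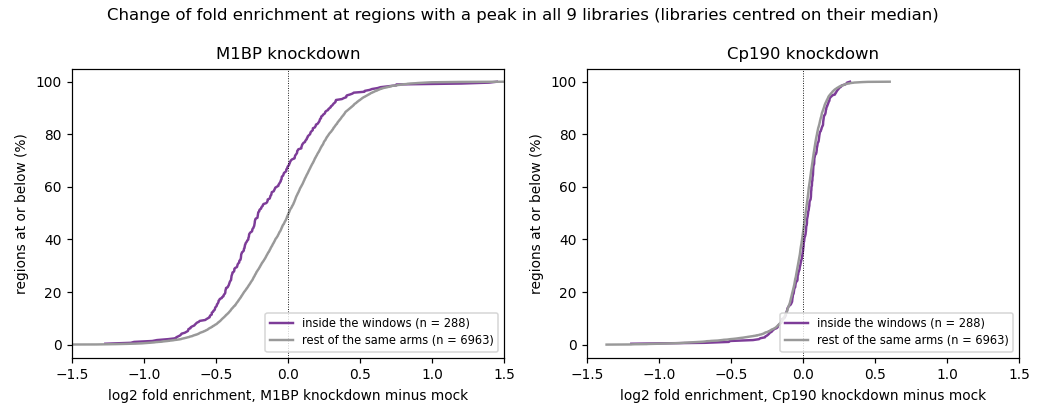
Cumulative share of regions (vertical, percent) by the change in log2 fold enrichment against mock (horizontal) for M1BP knockdown (left) and Cp190 knockdown (right), in 288 members with a peak in all 9 libraries and 6963 such regions in the rest of the arms, libraries centred on their median. In M1BP knockdown cells the members' curve lies to the left of the rest (medians -0.21 and 0.00), and in Cp190 knockdown cells the medians are 0.03 and 0.02.

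The member with the lowest p that fell was chr3L:27256099-27256903, 10952 bp from the start of RpL15, with a fold enrichment of 3.54, 3.55 and 3.15 in M1BP knockdown cells against 7.05, 6.63 and 6.75 in mock (log2 change -1.27 ± 0.07 SE, limma adjusted p = 1.11e-09). A region in an intron of vtd, which encodes the Rad21 subunit of cohesin, had 2.23, 2.49 and 2.24 against 4.14, 3.73 and 4.22 (log2 change -1.07). An exonic region of Marf1 (log2 change -0.94) and one overlapping R1A1 sequence near CkIIalpha (log2 change -1.09) also fell, and neither overlapped between groups. The rises with the lowest p included those at chr3L:25009922-25010725 between genes, with 11.5, 7.86 and 8.12 in M1BP knockdown cells against 2.77, 2.78 and 2.64 in mock (log2 change 1.45 ± 0.10 SE, limma adjusted p = 1.12e-08), and at chr2L:22003451-22003898, the member nearest to the boundary of the 2L window, with 8.29, 6.90 and 6.76 against 2.53, 2.14 and 2.22 (log2 change 1.40). Another, in an intron of CG40470, had 12.7, 9.48 and 9.83 against 3.76, 3.83 and 3.79 (log2 change 1.20), although the gene as a whole held fewer peaks. The last, near CG40472, rose by 0.62.

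Most promoter peaks of protein-coding genes in the windows were shared by all libraries. Of 116 such genes starting inside the windows, 47 had a peak within 100 bp of a start in all 9 libraries, 51 in no library and 18 in some. Tim23 and CG40485 had one in all mock and no M1BP knockdown library, and ND-MLRQ, a complex I subunit gene, and zyd, an ion exchanger gene, had the reverse. For the Cp190 knockdown both counts were 0. The same counts were not made for genes in the rest of the arms, so they cannot show what is particular to the windows. At the start of RpL15 fold enrichment was 7.69, 6.44 and 6.36 in M1BP knockdown cells and 6.93, 6.41 and 7.06 in mock (centred log2 change -0.27, limma adjusted p = 0.00364), and at RpL5 it was 6.79, 7.09 and 7.35 against 4.79, 4.63 and 4.53 (0.33, adjusted p = 0.00158). The 2 ribosomal protein genes thus moved in opposite directions relative to all regions. Parp1, the poly(ADP-ribose) polymerase gene, had 4.10, 4.53 and 3.56 against 6.20, 6.41 and 6.30 (-0.91, adjusted p = 3.01e-07), and Alg-2 had 4.20, 4.20 and 4.17 against 5.63, 5.35 and 6.04 (-0.71, adjusted p = 7.18e-06). cta, a G protein alpha subunit gene, fell by 0.53, the start of vtd by 0.20, and the region in su(f), a gene for mRNA 3′ end cleavage, by 0.29. The summits used for Parp1 and cta lay 366 and 535 bp from the start, and that for su(f) 172 bp. A region at another su(f) start, chrX:23096194-23096823, rose by 0.28, and its summit lay in the neighbouring gene CG17162, 67 bp from the start of that gene. At scro, a homeobox gene, the change was -0.10 and did not pass. Without centring these values are higher by the shift of 0.27 given before, which puts vtd and scro above 0 and RpL15 and the region in su(f) close to 0, while the signs of Parp1, Alg-2, cta and RpL5 stay. The Dbp80 start had a peak in 1 of 3 M1BP knockdown libraries and in all 6 others. AGO3, a piRNA pathway gene, had one at a start in 1 of 3 and in all 6 others. The same held within 100 bp of the start of cta. lt had a peak at its start in 2 Cp190 knockdown libraries and 1 mock library only, and nvd, spok, Set1, Snap25 and Myo81F had none at a start.

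In Cp190 knockdown cells the windows held more peaks than in mock while the rest of the arms did not. Inside there were 738, 787 and 724 peaks against 695, 607 and 682 in mock, without overlap (750 ± 33.1 and 661 ± 47.5, SD, exact permutation p = 0.1). The ratio was 1.14 on 2L, 1.10 on 3L, 1.45 on 3R and 1.18 on X, and the groups lay apart in each window. In the rest of the same arms it was 0.989, 0.990, 0.993 and 0.978, and the groups overlapped. The share of same-arm peaks inside was 5.11% ± 0.13 in Cp190 knockdown cells and 4.48% ± 0.10 in mock (SD, exact permutation p = 0.1), and without the 3R arm 6.50% ± 0.14 and 5.79% ± 0.10. In the first 500 kb from the boundary there were 53.7 ± 2.52 against 52.0 ± 4.0 peaks on 2L, 53.7 ± 3.21 against 55.0 ± 3.61 on 3L, 22.3 ± 2.52 against 19.0 ± 2.0 on 3R and 59.3 ± 2.08 against 52.0 ± 5.29 on X, and the groups lay apart on X alone. Beyond 1 Mb there were 24.7 ± 0.58 against 19.3 ± 1.53 on 2L and 397 ± 21.2 against 352 ± 28.9 on 3L (SD, n = 3 each), and 26, 33 and 28 against 20, 8 and 17 on 3R, apart in all 3, while on X from 500 kb on the groups overlapped (9.33 ± 2.08 against 6.0 ± 1.73, exact permutation p = 0.2). Percentile inside minus rest was -7.39 ± 0.89 and -6.52 ± 0.94 (SD), and median width 346 ± 6.0 bp and 336 ± 7.09 bp, with overlap in both (exact permutation p = 0.6 and 0.2). A peak at a transcript start was present for 40%, 42.4% and 41.4% of starts in Cp190 knockdown cells and 39.0%, 38.6% and 39.7% in mock. Among the 72 genes with 20 or more regions, 13 (18.1%) had more peaks in every Cp190 knockdown library and 10 (13.9%) fewer. Inside, Myo81F, Dbp80 (38, 38 and 38 against 35, 35 and 36), CG40006 (17, 17 and 16 against 13, 9 and 12) and l(3)80Fj (20, 19 and 20 against 17, 14 and 17) had more, and 0 of the 8 had fewer.

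Few members were lost or gained outright. Lost were 9 of 500 regions (1.8%), against 4.21% of all regions and 4.44% in the rest of the same arms, and gained were 17 of 559 (3.04%), against 1.98% and 1.87%. Without mock replicate 2 the lost regions were 16. The gained ones were 35, 26 and 36 without Cp190 knockdown replicates 1, 2 and 3, and 30 without mock replicate 1 or 3. Of the 9 lost, 5 were in the weakest class by percentile (5 of 209, against 6.25% in the rest), 3 in the middle class (3 of 154, against 5.03%) and 1 in the strongest (1 of 137, against 2.02%). The strongest lost region, chr3R:4186899-4187632 in CR33294 near the boundary of the 3R window, had percentiles of 75.2, 74.4 and 72.2 in M1BP knockdown cells and 80.2, 86.1 and 81.4 in mock, and none in Cp190 knockdown cells. A further 3 of those named, chr3L:26056211-26056604, chrX:22914992-22916083 and chrX:22603038-22603284 in Cda4, were also held by all M1BP knockdown and mock libraries. The last is the member nearest to the boundary of the X window. The other 2, chr3L:22911727-22911992 in CG12768 and the site on 3R that the M1BP knockdown lacked too, were found in mock only. By class, 6.25% of the regions inside and 4.79% in the rest were gained among the weakest. In the middle class it was 1.53% and 0.717%, and in the strongest 0% and 0.0542%. Gained regions were weak, with a median percentile of 20.7, and 5 of the 17 had at least 50% repeated stretches. The strongest by rank was chr3L:27128971-27129357 with 58.3, 46.3 and 53.6, followed by a copy of R2, an element that inserts in ribosomal DNA, at chrX:23220396-23220602 with 49.5, 56.6 and 44.6, which the M1BP knockdown held as well at 57.0, 30.4 and 77.8. The region chr3L:23096407-23097076, at 1 of the 5 starts of CkIIalpha, the casein kinase 2 catalytic subunit gene, was gained in both knockdowns, while the gene had a peak at a start in all 3 mock libraries. A further 2, at chr3L:25077168-25077463 and chr3L:24034355-24034686, overlapped copies of 1360, with percentiles of 18.7 to 46.2. The second of these lay in an intron of CG40045. Another gained region, chr3L:22947877-22948085, lay in an intron of Mes2.

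In the graded test 7 of the 288 members fell in Cp190 knockdown cells (2.43%) and 1 rose (0.347%), against 3.44% and 1.03% of all regions (limma, adjusted p under 0.05). At an unadjusted p under 0.05, 20 fell and 17 rose. Without mock replicate 2 or 3, 4 fell. The number that rose was 0 without Cp190 knockdown replicate 2 or mock replicate 3, and 2 without mock replicate 1. The median change was 0.03 inside and 0.02 in the rest on the log2 scale. The largest of the named falls was at chrX:22652212-22652805 between genes, with a fold enrichment of 3.08, 3.34 and 3.04 in Cp190 knockdown cells against 6.75, 7.10 and 7.07 in mock (log2 change -1.20 ± 0.08 SE, adjusted p = 5.21e-08). It was single-copy, and in M1BP knockdown cells its change was 0.13 (adjusted p = 0.156). The others were in introns of CG3635 (2.68, 2.97 and 2.92 against 4.54, 4.24 and 4.51) and CG12768 (2.54, 2.44 and 2.69 against 3.44, 3.82 and 3.34) and between genes on 3L (log2 change -0.51). The region that rose was chr2L:22003451-22003898, which also rose in M1BP knockdown cells, with 2.85, 2.97 and 2.89 against 2.53, 2.14 and 2.22 (log2 change 0.29 ± 0.08 SE, adjusted p = 0.0487). Both comparisons share the mock libraries. The nearest region outside the 2L boundary, chr2L:21998215-21998567, had no peak in M1BP knockdown cells, and fold enrichments of 2.62, 2.90 and 2.62 in Cp190 knockdown cells and 2.41, 2.19 and 1.87 in mock. At 3L the nearest member covered the start of BoYb, a piRNA pathway gene, with 3.63, 3.36 and 3.38 in M1BP knockdown cells, 2.79, 2.97 and 3.06 in Cp190 knockdown cells and 2.56, 2.70 and 2.45 in mock. At 3R the nearest member, in beta-Man, was a single peak of 1 Cp190 knockdown library. At 1 site on 3L 6 peaks crossed the boundary and were counted with the rest.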

How the data were processed

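ATAC-seq of 9 Kc167 libraries was used, grouped by their titles. The authors trimmed reads with cutadapt 1.8.1, mapped pairs with Bowtie2 2.3.5 to dm6, discarded mitochondrial reads (SAMtools 1.9) and duplicates (Picard), kept properly paired unique alignments, and called peaks with MACS2 2.2.5 per library without a control. Whether cut sites were shifted is not given in the sources used here. In the deposited lists the ratio is a fold enrichment, that of fragments at the summit over local background, and the −log10 p and −log10 q columns are its significance, cut by the authors at a −log10 q of 4. The deposited score is a rescaled −log10 q and was not used for tests. Fragments over a summit and the local background were recovered from fold enrichment and −log10 p, and came out whole for 100% of peaks within 0.05 fragments. Read totals per library are not in these lists, so precision is limited by 13464 to 18959 peaks per list and 3 libraries a group, and intervals cover counting error only.

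Peaks were merged at 1 bp of overlap. Genome and repeat masking came from RefSeq and genes from Ensembl, both on dm6. Differences between groups were tested by exact two-sided permutation over libraries, differences between inside and rest by exact sign flips over 9 libraries, and regions with a peak in all libraries by limma 3.58.1 in R 4.3.3 on log2 fold enrichment, with Benjamini-Hochberg adjustment over 9033 regions. Python 3.11.15 ran the other steps, with scipy 1.17.1, pandas 2.3.3, numpy 2.4.6 and matplotlib 3.10.9. Merging and limma code was tested on simulated data. Named regions were, per knockdown, up to 6 lost or gained with the highest mean percentile (8 or fewer in full), 4 per direction with the smallest limma p, the 6 highest and the highest per window, the 3 widest, the nearest to each boundary, and those at starts of a fixed gene list. Members, lists and tests were chosen with earlier results of these data known. Same-numbered replicates did not deviate together in all pairs, so the main tests are unpaired. Alternatives were stricter −log10 q values of 10 and 20, equal list lengths, windows shortened by 500 kb, wider windows around starts of 500 bp, a required cover of 50%, other scalings and leaving out each library.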

Additional observations from a re-analysis of the deposited data

Results flagged for a closer look

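In the M1BP knockdown the windows did not move together. All 3 M1BP knockdown libraries had fewer peaks than any mock library in the 2L window (ratio of means 0.853) and the 3L window (0.716), and all 3 had more in the 3R window (2.47). In the rest of these arms the ratios were 0.835 on 2L, 0.797 on 3L and 0.804 on 3R. The difference between windows was not tested.

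The same held between genes inside the windows. Peaks in Myo81F were 4.73 times as many in the M1BP knockdown as in mock, while the ratio was 0.651 in Dbp80, 0.717 in l(3)80Fg, 0.590 in CG40470 and 0.250 in l(3)80Fj, with no overlap between groups in any of them. Among the 72 genes of the 4 arms with 20 or more regions, 37 (51.4%) had fewer peaks in every M1BP knockdown library than in every mock library. More peaks were found in 2 of the 72 (2.78%). Fewer peaks in a gene were thus not particular to the windows. The difference between genes was not tested.

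Scaffolds that are not placed on an arm were outside the comparisons. They held 49, 38 and 76 peaks in the M1BP knockdown (mean 54.3), 34, 37 and 38 in the Cp190 knockdown (mean 36.3) and 28, 20 and 31 in mock, so every library of both knockdowns was above every mock library.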

How the results depend on the processing

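Of 303 values recomputed for 23 results, 261 kept their direction and their side of the threshold, or stayed within 1.5 times for counts. With a −log10 q of at least 20, the M1BP knockdown's share inside was -0.26 points from mock and the Cp190 knockdown's median width -3.83 bp, the starts with a peak inside were 0.92 points above the rest (exact p = 0.0117), 36 regions were lost and 26 gained in the M1BP knockdown and 10 gained in the Cp190 knockdown, and 87 fell in the M1BP knockdown and 0 rose in the Cp190 knockdown. With as many peaks per library as the shortest list, the M1BP knockdown had 40.3 more peaks inside than mock, 49 lost regions in the M1BP knockdown and 11 gained in the Cp190 knockdown, and 0 rose in the Cp190 knockdown. With shortened windows the starts with a peak were -5.64 points from the rest, 4 regions were lost, 3 fell and 0 rose in the Cp190 knockdown. Ranking by fold enrichment gave -3.16 for the percentile inside against rest and 0.22 for its change in the Cp190 knockdown. Without centring 99 rose and 35 fell in the M1BP knockdown, and 0 and 4 in the Cp190 knockdown, and with fragments 0 and 11 in the Cp190 knockdown. Chosen after seeing the data, leaving out 3R gave -0.26 points for the M1BP knockdown's share, 25 gained regions and 0.48 points for starts inside against rest. For these the cause was not tested.

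Same-numbered libraries correlated at 0.083, 0.113 and -0.002 (M1BP knockdown) and -0.174, -0.074 and -0.006 (Cp190 knockdown) in their deviations. Differently numbered libraries ran from -0.130 to 0.054 and from -0.111 to 0.141. These correlations cannot settle whether same-numbered libraries were processed together. With a replicate block 46 members rose and 139 fell in the M1BP knockdown, and 2 rose and 5 fell in the Cp190 knockdown. Leaving out single libraries gave, in the M1BP knockdown, 46 to 67 gained and 107 to 130 lost regions, 41 to 53 that rose and 126 to 146 that fell, and a median width -8.92 to 2.08 bp from mock (above it without M1BP knockdown replicate 2 or mock replicate 2). In the Cp190 knockdown it gave 23 to 36 gained, 10 to 16 lost, 0 to 2 that rose and 4 to 9 that fell. Leaving out a library loosens the definition of lost and gained. A 3 against 3 design cannot pass 0.05 by permutation, so its p-values say nothing about stability.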
